A study of Mus musculus with 5 samples.

Results

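The BBSome is a coat-like protein complex that rides on intraflagellar transport trains and carries membrane proteins into and out of cilia, and its genes were examined here together with those of the chaperonin-like factors that help to fold and assemble it. The 10 genes formed a list named with earlier results of these data known. They were the BBSome subunits Bbs1, Bbs2, Bbs4, Bbs5, Bbs7, Bbs9 and Ttc8, and the chaperonin-like factors Mkks, Bbs10 and Bbs12. Members were all probe sets annotated to 1 of these symbols alone, and each of the 10 genes had at least 1, giving 16 probe sets of 34945 that carry a single gene and 10 genes of 18193 in all. Expression was measured in 1 group, GFP+ cells sorted by flow cytometry from E17.5 lungs of FOXJ1-GFP embryos, the offspring of matings with out-bred ICR mice, with 5 biological replicates and 1 Affymetrix array each. In this line the FOXJ1 promoter drives GFP, so the sort selects cells that are becoming multiciliated. How many lungs or litters went into a replicate is not stated, no other population is analysed here, and p-values therefore cover only the scatter of these 5 arrays, which may be technical. Values are the authors' log2 signals.

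In mouse and human, loss of the BBSome or of its assembly factors causes Bardet-Biedl syndrome, a ciliopathy with retinal degeneration, obesity and kidney defects. BBS1, BBS2, BBS7 and BBS9 carry beta-propeller domains, BBS4 and TTC8 (also called BBS8) are built of tetratricopeptide repeats, and BBS5 carries pleckstrin homology domains that bind membrane lipids. MKKS, BBS10 and BBS12 resemble subunits of the cytosolic chaperonin CCT, with which they act on BBS7 early in assembly. The complex is known best from primary cilia, but multiciliated airway cells also use it, and airway cilia of mice that lack it form with abnormal tips.

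The promoters of the genes were read first, because RFX factors bind the X-box, a motif of ciliary genes made of a pair of inverted arms, and because FOXJ1 binds forkhead sites. The RefSeq promoter table for GRCm38.p6 gave 1 window per member, running 250 bases upstream to 50 bases downstream of the start site, and 32851 windows over all genes. Both strands were searched. The X-box was found in 1 of 10 member promoters, that of Bbs1, against 1.53% of all promoters. Its arm GTTGCC was found in 3 of 10, Bbs1, Bbs5 and Bbs7, against 12.5% of all promoters. In Bbs1 this arm is part of the X-box, and in Bbs5 it lies at bases 43 to 48, close to the end of the window. With at most 1 letter of the X-box off, a search added after the promoters had been seen, 4 of 10 matched, those of Bbs1, Bbs4, Bbs7 and Bbs10, against 11.3% of all promoters. In the Bbs7 promoter a match of this kind starts with GTTGCC. The forkhead core GTAAACA was found in 0 of 10, against 3.65% of all promoters, which says only that these letters are not in these windows. Member promoters had a median of 59.5% G and C and 20.5 CpG dinucleotides, against 52.7% and 7 CpG dinucleotides over all promoters. Matches are descriptions of the sequence and not measured binding sites.

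**Figure D1:**
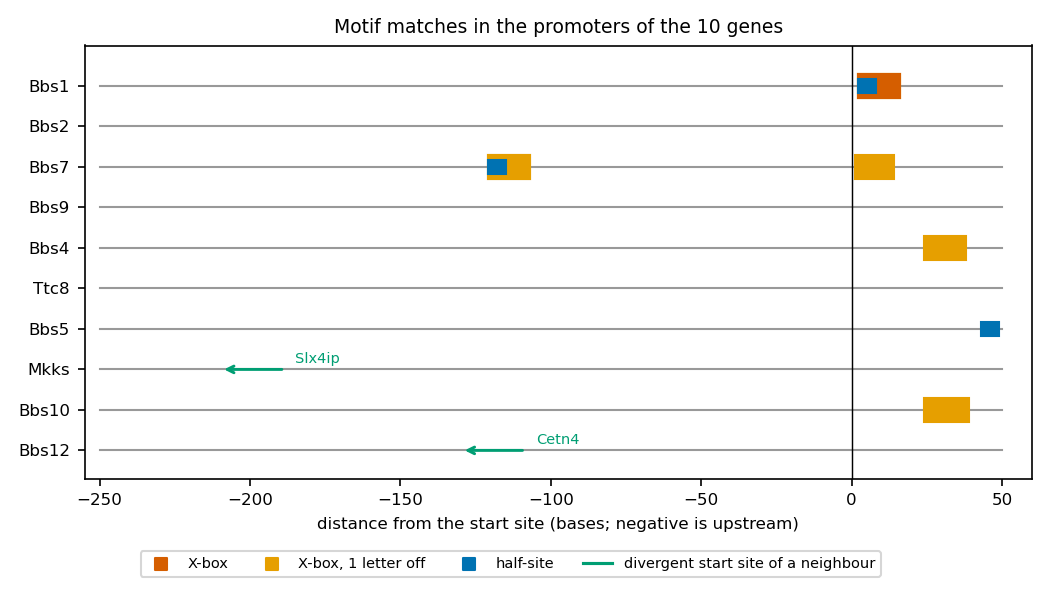
Motif matches in the promoters of the 10 genes. The horizontal axis gives the distance in bases from the RefSeq start site (line at 0, negative upstream), grey lines are the windows, boxes are the X-box (Bbs1 only), matches 1 letter off (Bbs4, Bbs7, Bbs10) and the arm GTTGCC (labelled half-site), and arrows start at the divergent start sites of Slx4ip and Cetn4, 188 and 108 bases from those of Mkks and Bbs12; the start site of Slx4ip downstream of Mkks lies outside the window.

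The promoters of Bbs1, Bbs4 and Bbs7, a beta-propeller subunit, a repeat subunit and the subunit on which the chaperonin-like factors act, are shown as the BBSome subunits whose windows hold the X-box or a match 1 letter off. Each is written 5′ to 3′ on the strand of its gene, and capitals mark the matches. All 3 genes lie on the minus strand, and the windows are chr19:4906578-4906877 for Bbs1, chr9:59353459-59353758 for Bbs4 and chr3:36613340-36613639 for Bbs7.
Bbs1: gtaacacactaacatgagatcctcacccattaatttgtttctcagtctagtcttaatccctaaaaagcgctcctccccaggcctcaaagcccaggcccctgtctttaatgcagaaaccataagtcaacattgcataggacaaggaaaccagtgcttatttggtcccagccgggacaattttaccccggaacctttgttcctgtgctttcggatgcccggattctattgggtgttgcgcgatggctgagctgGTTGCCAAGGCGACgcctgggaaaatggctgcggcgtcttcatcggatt
Bbs4: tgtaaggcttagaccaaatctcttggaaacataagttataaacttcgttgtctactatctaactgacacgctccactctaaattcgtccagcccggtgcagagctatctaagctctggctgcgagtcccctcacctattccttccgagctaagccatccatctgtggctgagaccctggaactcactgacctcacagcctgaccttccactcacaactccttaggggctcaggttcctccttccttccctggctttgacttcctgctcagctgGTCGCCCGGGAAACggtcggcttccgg
Bbs7: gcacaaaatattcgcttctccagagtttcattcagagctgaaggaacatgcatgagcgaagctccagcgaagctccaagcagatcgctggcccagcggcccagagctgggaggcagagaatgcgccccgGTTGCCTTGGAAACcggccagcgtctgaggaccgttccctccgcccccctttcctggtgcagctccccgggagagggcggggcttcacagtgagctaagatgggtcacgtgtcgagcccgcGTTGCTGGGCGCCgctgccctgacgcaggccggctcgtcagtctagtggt
The Bbs1 match spans bases 2 to 15 after the start site, the Bbs4 match bases 24 to 37, and the Bbs7 matches bases -121 to -108 and 1 to 13.

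All 10 genes were detected above background in the sorted cells. Each gene was represented by its probe set with the highest mean. Background was the 95th percentile, 7.10 on the log2 scale, of the mean signals of 143 genes foreign to lung epithelium: 76 olfactory, vomeronasal and taste receptor genes and 67 genes of tissues such as liver, retina, muscle and pancreas. The mean of each probe set was tested against this level with limma's moderated standard error, one-sided, at an adjusted p under 0.05. Of all genes 64.7% were called above background. Of the 143 background genes 6 were, a count largely set by the choice of percentile and not an error rate. The highest mean of a background gene was 11.15, for Lhb. Against a fixed level of 5 on the log2 scale, 10 of 10 members passed, beside 81.3% of all genes. The number was a cut-off in arbitrary units when these cells were compared with E11.5 tip progenitors. Its scale may differ from that of the deposited values. There it was set on average expression, together with a fold-change cut-off. Here it was set on the mean of the sorted cells alone. Probe sets differ in how strongly they bind, so levels of different genes are not ranked.

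**Figure D2:**
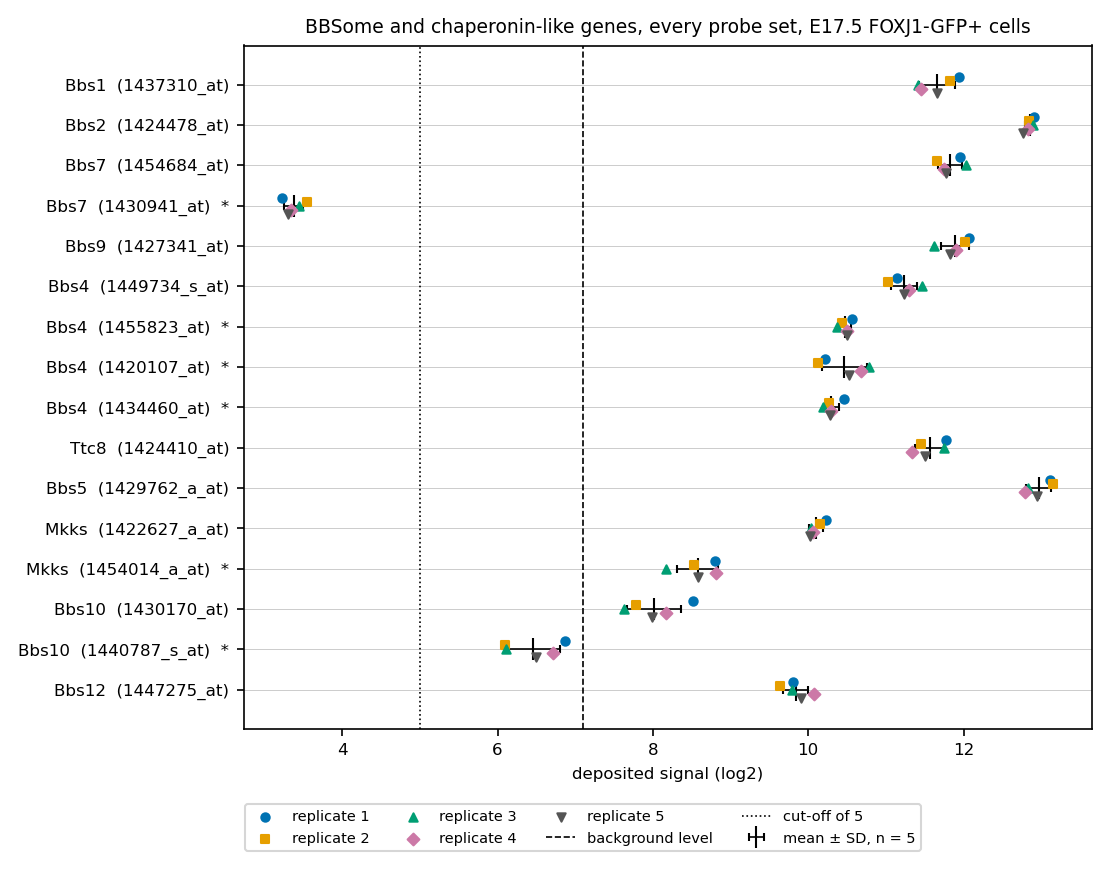
Deposited log2 signals of all 16 probe sets of the 10 genes in 5 replicates of the sorted FOXJ1-GFP+ cells. Each symbol is 1 replicate, bars are mean ± SD (n = 5), the dashed line is the background level of 7.10, the dotted line the cut-off of 5, and asterisks mark probe sets that do not represent their gene. Of the 16, the second Bbs7 probe set and the second Bbs10 probe set lie below the dashed line on every array.

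Among the beta-propeller subunits, Bbs2 was measured most evenly. Bbs2 had values of 12.91, 12.84, 12.89, 12.83 and 12.77 in replicates 1 to 5, a mean of 12.85 ± 0.06 (SD, n = 5), which lay 5.75 above background (adjusted p = 4.6e-11). Only 5.62% of the genes above background had a smaller SD. Bbs1, the subunit that contacts the GTPase ARL6, had 11.94, 11.82, 11.42, 11.46 and 11.65, a mean of 11.66 ± 0.23, which was 4.56 above background (adjusted p = 7.93e-10). Its replicates 1 and 2 were high and its replicates 3 and 4 low, over a range of 0.52. Bbs9, a scaffold of the complex, had 12.07, 12.02, 11.62, 11.90 and 11.83, with a mean of 11.89 ± 0.18, 4.79 above background (adjusted p = 2.79e-10), and was likewise high in replicates 1 and 2 and lowest in replicate 3.

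Bbs7 gave opposite calls with its 2 probe sets. The probe set 1454684_at had 11.95, 11.65, 12.03, 11.75 and 11.77, a mean of 11.83 ± 0.15 and 4.73 above background (adjusted p = 2.1e-10). The probe set 1430941_at had 3.23, 3.55, 3.44, 3.34 and 3.31, a mean of 3.37 ± 0.12, which is below the median of 3.60 of the receptor genes in the background list. Its signal, below background, gives no level for the transcript. A call for 1 probe set and not for another was found in 48.4% of the 9010 genes with several probe sets. The gap between the 2 Bbs7 means, 8.46, was unusually wide. A gap at least as wide was found in 2.00% of these genes, whose median gap was 2.80. With both probe sets averaged, Bbs7 was 0.50 above background (adjusted p = 2.14e-05).

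The repeat subunits were represented by Bbs4 with 4 probe sets and Ttc8 with 1. Ttc8 had 11.77, 11.46, 11.75, 11.34 and 11.50, with a mean of 11.56 ± 0.19, 4.46 above background (adjusted p = 4.84e-10). Its replicates 1 and 3 were high. All 4 probe sets of Bbs4, which links the complex to the centriolar satellite protein PCM1, were above background on every array, but they disagreed on which arrays were high. The probe set 1449734_s_at had 11.14, 11.03, 11.47, 11.30 and 11.23 (mean 11.23 ± 0.17, 4.13 above background, adjusted p = 4.88e-10), and 1420107_at, annotated to the same target sequence, had 10.21, 10.13, 10.78, 10.68 and 10.53 (mean 10.47 ± 0.29). Both were highest in replicate 3 and lowest in replicate 2. The probe sets 1455823_at and 1434460_at were instead highest in replicate 1 and lowest in replicate 3, with 10.57 and 10.37 for the one and 10.46 and 10.18 for the other. Their difference was near constant, 0.18 ± 0.04, whereas 1420107_at minus 1434460_at ran between -0.24 in replicate 1 and 0.59 in replicate 3. An order of the arrays for Bbs4 therefore depends on the probe set.

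Bbs5, the lipid-binding subunit, had 13.11, 13.16, 12.83, 12.79 and 12.94, a mean of 12.97 ± 0.16, which was 5.87 above background (adjusted p = 9.41e-11). As with Bbs1, replicates 1 and 2 were the highest and replicates 3 and 4 the lowest.

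The 3 chaperonin-like genes were all called, with Bbs10 nearest to background. Mkks had 10.22, 10.16, 10.03, 10.07 and 10.03 with the probe set that represents it, a mean of 10.10 ± 0.09 and 3.00 above background (adjusted p = 8.03e-10). Its other probe set had 8.81, 8.53, 8.16, 8.81 and 8.59, a mean of 8.58 ± 0.27, and was called as well (adjusted p = 2.12e-06). Bbs12 had 9.80, 9.63, 9.80, 10.07 and 9.90, a mean of 9.84 ± 0.16, which was 2.74 above background (adjusted p = 4.97e-09). It was highest in replicate 4, where none of the other 9 genes had its highest value.

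Bbs10 had 8.52, 7.78, 7.62, 8.17 and 7.99, a mean of 8.02 ± 0.35, only 0.91 above background (adjusted p = 0.000196). Of the genes above background 92.4% had a smaller SD. The second probe set had 6.87, 6.10, 6.11, 6.72 and 6.50, a mean of 6.46 ± 0.35, and lay below background on every array. The 2 probe sets nevertheless moved together, with a difference of 1.56 ± 0.10, and both were highest in replicate 1 and next highest in replicate 4. The call was lost with both probe sets averaged (0.14 above background, adjusted p = 0.251) and with the tissue genes alone as background (0.10, adjusted p = 0.568). With the 99th percentile as the level Bbs10 lay below the level by 0.39 (-0.39).

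Counted by probe set, 14 of 16 were above background, beside 56.1% of the 34945 single-gene probe sets. The exceptions were the second probe sets of Bbs7 and Bbs10. All 10 genes kept their call when each of the 5 replicates was left out in turn.

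Between replicates the members varied about as much as other genes. The median SD was 0.16 for the 10 members, 0.16 for the 11772 genes above background and 0.17 for all genes. The SDs of the members ran between 0.06 for Bbs2 and 0.35 for Bbs10. For the 7 subunits among the members the median SD was 0.17 and for the 3 chaperonin-like genes 0.16. Lists described below differed. Their median SD was 0.09 for the 7 partner genes, 0.11 for the 9 ciliated cell markers and 0.25 for the 8 genes of sorted membrane proteins.

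**Figure D3:**
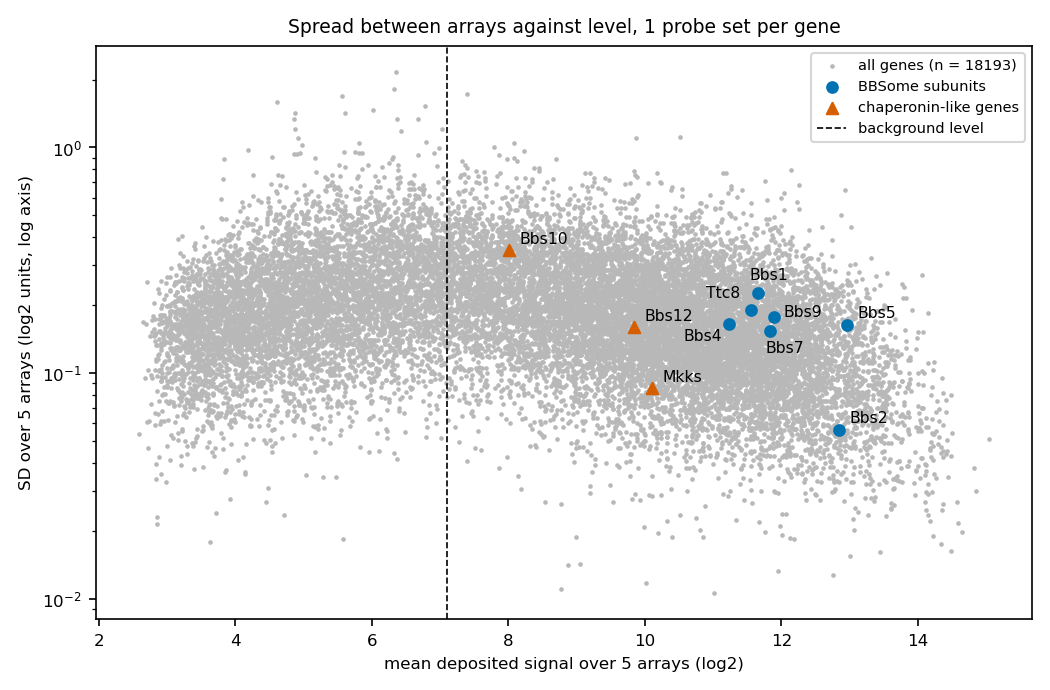
SD over the 5 arrays (log axis, log2 units) against the mean log2 signal, 1 probe set per gene. Grey points are all 18193 genes, circles the BBSome subunits, triangles the chaperonin-like genes and the dashed line the background level; the members lie within the grey cloud, with Bbs10 at an SD of 0.35 and Bbs2 at 0.06.

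Averaged over the 10 members, replicate 1 stood apart. It held the highest value for 6 of 10 genes and the lowest for 0, whereas over all genes above background it was the highest array for 31.0% and the lowest for 20.7%. Averaged over the 10 genes, values deviated from their own means by 0.15 in replicate 1, and by -0.04, -0.05, -0.03 and -0.03 in replicates 2 to 5. The 7 subunits deviated by 0.13, -0.0005, 0.0016, -0.09 and -0.04 in replicates 1 to 5. The 3 chaperonin-like genes deviated by 0.20, -0.13, -0.17, 0.12 and -0.01, so replicate 4 was high for them too. Without Bbs10 the mean deviation of the members in replicate 1 was 0.11. Over all genes above background it was 0.01. The exceptions were Bbs12 (-0.04) and Bbs4 with the probe set that represents it (-0.09), whereas the Bbs4 probe sets 1455823_at and 1434460_at lay above their means in replicate 1, by 0.09 and 0.16. Replicate 1 was also the array with the lowest values for alveolar type 2 markers, with a mean deviation of -0.68, and for endothelial (-0.50), white blood cell (-0.46) and mesenchymal markers (-0.23). Alveolar type 1 markers were lowest there too (-0.27). Club and goblet (0.10) and neuroendocrine markers (0.09) were instead above their means in replicate 1. The 9 measured ciliated cell markers deviated by 0.03 there, a mean over markers that went both ways. Dnah5 had 10.85 in replicate 1 beside a mean of 10.04 ± 0.69, and Cfap43 had 12.87 beside a mean of 13.32 ± 0.33. The BBSome partner genes described below were, like the members, highest on average in replicate 1 (0.06), though not each of them. The 8 CCT genes were also highest on average there (0.04). Other Bardet-Biedl syndrome genes deviated by -0.0017 there. The 3′ minus 5′ signal of the Gapdh control, a sign of RNA integrity, was 1.02 and 1.03 in replicates 1 and 2 and 1.43, 1.25 and 1.14 in replicates 3, 4 and 5. The part of these differences in the members' values was not tested. In a bulk sample, fewer cells of a type and less RNA per cell cannot be told apart.

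**Figure D4:**
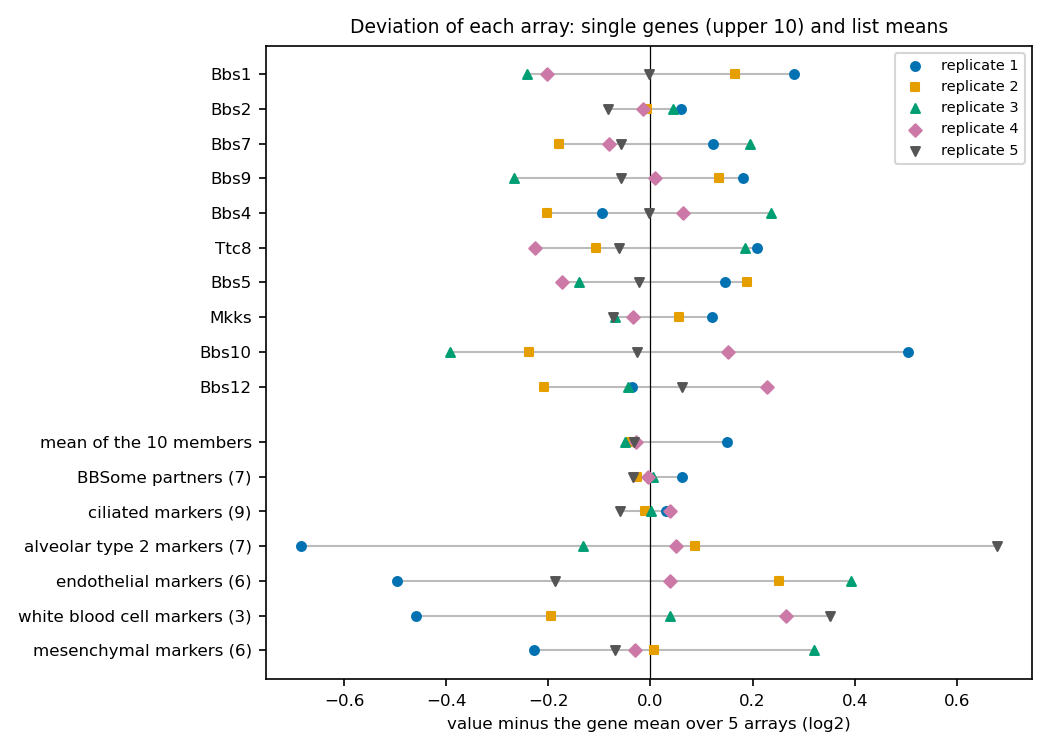
Deviation of each array from the mean over 5 arrays, in log2 units, for each of the 10 genes and for the means of gene lists, with the number of genes in brackets. Each symbol is 1 replicate; the mean of the members lies at 0.15 in replicate 1 and between -0.05 and -0.03 in the other 4, while alveolar type 2 markers lie between -0.68 and 0.68.

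The sorted cells carried the markers of their label. All 9 measured ciliated cell markers were above background, beside 64.7% of all genes, among them Foxj1 at 12.82 ± 0.08 (SD, n = 5). Markers of other lung cells were present as well, with 7 of 7 alveolar type 2, 6 of 6 alveolar type 1, 5 of 6 club and goblet, 4 of 4 neuroendocrine, 6 of 6 endothelial, 6 of 6 mesenchymal, 3 of 6 white blood cell, 1 of 5 basal and 1 of 4 red blood cell genes above background. The BBSome also serves primary cilia, so the share of the members' signal that came from such cells was not measured. Across probe sets, which are not replicates, pairs of arrays had Pearson's r of 0.987 to 0.994.

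The partners of the BBSome were detected as well. All 7 measured genes of this list were above background, beside 64.7% of all genes. They cover its recruitment and regulation and the subunit gene Bbip1. Arl6, which encodes the GTPase that brings the complex to membranes, is not analysed here. Bbip1, which encodes the smallest subunit but is not among the 10 members, had 13.03, 13.11, 12.96, 12.88 and 13.01 (mean 13.00 ± 0.09). Lztfl1, a regulator of BBSome entry into cilia, averaged 12.18 ± 0.10. Rab3ip and Rab8a, an exchange factor and its GTPase in growth of the ciliary membrane, averaged 12.22 ± 0.09 and 10.50 ± 0.12.

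Other genes mutated in Bardet-Biedl syndrome or held to modify it gave 10 of 10 measured above background, beside 64.7% of all genes. Their median SD was 0.15. Trim32, a ubiquitin ligase, averaged 10.15 ± 0.29, Mks1 and Cep290, of the gate at the base of the cilium, 11.61 ± 0.19 and 10.10 ± 0.03, and Wdpcp, a planar polarity effector, 11.85 ± 0.12. All 8 subunits of CCT, the chaperonin that works with Mkks, Bbs10 and Bbs12, were above background, again beside 64.7% of all genes. Tcp1, Cct2, Cct3 and Cct4 averaged 13.53 ± 0.06, 13.66 ± 0.05, 13.37 ± 0.03 and 13.65 ± 0.03. The median SD of the 8 CCT genes was 0.05, beside 0.16 for the 3 chaperonin-like genes.

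Membrane proteins that the BBSome is known to sort in primary cilia gave 4 of 8 above background, beside 64.7% of all genes. Sstr3, a somatostatin receptor, had 6.21, 6.16, 6.25, 6.18 and 6.30 (mean 6.22 ± 0.06), Mchr1, a receptor of melanin-concentrating hormone, averaged 5.89 ± 0.36, Npy2r, a neuropeptide Y receptor, 4.74 ± 0.44, and Drd1, a dopamine receptor, 4.93 ± 0.28. These 4 neuronal receptors were not above background, but Sstr3 and Mchr1 were with the receptor genes alone as background (level 5.44). Gpr161 and Smo, of the hedgehog pathway, were, at 8.60 ± 0.19 and 9.08 ± 0.12, and so were Adcy3, a ciliary adenylate cyclase, at 8.03 ± 0.22 and Pkd1, which encodes polycystin-1, at 9.41 ± 0.32. The count was 6 of 8 with that background, beside 77.3% of all genes. It was 2 of 8 with probe sets averaged within genes, beside 57.7%.

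All 5 listed transcription factors of ciliated cells were above background, beside 64.7% of all genes. Of their motifs, only those of the RFX factors and of FOXJ1 were searched in the promoters. Foxj1 had 12.81, 12.79, 12.86, 12.94 and 12.72, and Rfx2 and Rfx3 averaged 11.91 ± 0.20 and 12.20 ± 0.07. Myb, which acts early in multiciliated cells, averaged 13.77 ± 0.06. Rfx2 was high in replicate 3, at 12.27, where the other arrays lay between 11.80 and 11.85. In that replicate Bbs1, whose promoter holds the X-box, had its lowest value, 11.42, and Bbs7 its highest, 12.03. The probe sets of Bbs4 were split between highest and lowest. Bbs10, whose promoter matches with 1 letter off, was lowest there with its representing probe set, at 7.62. Bbs9, whose promoter has no match, was lowest there as well, at 11.62. A link between Rfx2 and these values was not tested.

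The start sites of Bbs12 and Mkks each have a neighbour on the opposite strand within 500 bases, and these genes were chosen after the promoters had been seen. Cetn4, a centrin gene that starts 108 bases from Bbs12, had 12.50, 12.20, 12.56, 12.52 and 12.51, a mean of 12.46 ± 0.15, which was 5.36 above background (adjusted p = 1.09e-10). Like Bbs12 it was lowest in replicate 2. Slx4ip has a RefSeq start site 188 bases upstream of that of Mkks, pointing away from it, and another 188 bases downstream, from which the transcripts overlap. Slx4ip had 6.77, 6.99, 6.33, 6.28 and 5.97, below background on every array.

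**Figure D5:**
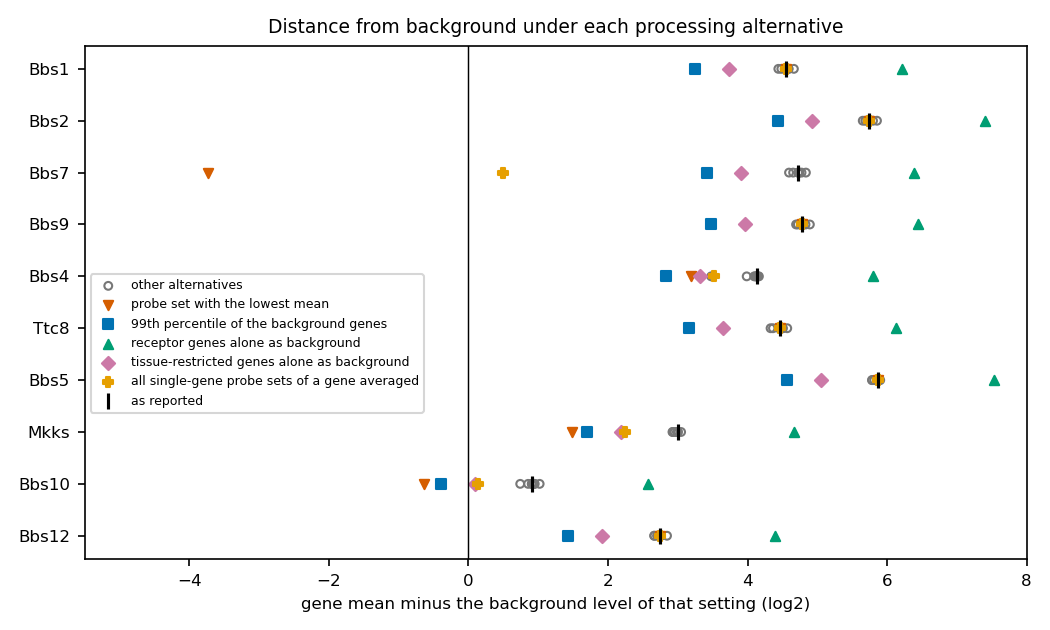
Distance of each gene's mean from the background level, in log2 units, as reported (black bars) and under 14 processing alternatives (symbols), with the line at 0 marking background. Bbs10 falls to -0.39 with the 99th percentile and to -0.64 with its lowest probe set, and Bbs7 to -3.73 with its lowest probe set, while the other 8 genes stay to the right of the line.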

How the data were processed

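RNA of GFP+ cells from 5 biological replicates was amplified, biotin-labelled and hybridised to Affymetrix mouse arrays, and the authors analysed the arrays with Bioconductor. The deposited values are normalized log2 signals, 1 per probe set and array, running between 2.37 and 15.11, a range that fits a log2 scale. The authors' summary and normalization method is not stated by the methods, the labels or the files. Genes were not centred, and 0 of 10 pairs of arrays were identical.

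Besides 64 control probe sets there were 45037: 34945 with 1 gene in GEO's platform annotation, 932 with several and 9160 unnamed here. By identifier, 99.4% of the 34945 matched the GRCm38.p6 gene table, and 0 symbols changed. An intercept per probe set was fitted with lmFit and eBayes (limma 3.58.1, R 4.3.3). Each mean was set against the level in a one-sided t-test with limma's moderated standard error and degrees of freedom. That test used scipy 1.17.1, and the Benjamini-Hochberg adjustment ran over all 45037. The fit was tested on simulated data. The rest was computed in Python 3.11.15 (pandas 2.3.3, numpy 2.4.6). Named are all members, and of each other list the first 4 genes and up to 5 whose call went against most of it. Gpr161, Smo, Adcy3, Pkd1, Cetn4, Slx4ip, Cfap43 and Lhb were named after their values were seen. Members, lists and tests were chosen with earlier results of these data known. The alternatives changed the probe set, background, normalization, call or replicates. A protein comparison was planned and not made. The number of arrays limits the precision.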

Additional observations from a re-analysis of the deposited data

Results flagged for a closer look

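Of 43 sets of 5 array values examined, those of the 16 member probe sets, of the other named pathway and neighbour genes and of the members' mean deviation, 4 had a sample whose gap to the nearest other sample was more than 0.71 of the whole range. Chance alone gives about 1 such set in 20.

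The mean deviation of the 10 members was 0.15 in replicate 1, with the other arrays between -0.05 and -0.03. It was 0.13 after the arrays were quantile-normalized again, 0.14 after they were centred on their medians and 0.11 without Bbs10, alternatives chosen after the data were seen. None of the 16 member probe sets had such a sample by itself. In replicate 4 the mean deviation was -0.09 for the 7 subunits and 0.12 for the 3 chaperonin-like genes, so the pooled mean hides opposite deviations there.

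Rfx2 was at 12.27 in replicate 3, above 11.80 to 11.85 on the other arrays. Cct3 was at 13.42 in replicate 4, above 13.35 to 13.36 on the others, a range of only 0.07. Cetn4 was at 12.20 in replicate 2, below 12.50 to 12.56 on the others.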

How the results depend on the processing

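All 10 genes were above background under 9 of 14 alternatives. The count was 9 with all probe sets averaged, beside 57.7% of all genes. It was also 9 with the 99th percentile (54.1%) and with the tissue genes alone as background (58.4%). Without suffixed probe sets it was 8 of 8 measured (61.7%). With the lowest probe set of each gene, an alternative chosen after the data were seen, it was 8 (40.8%). With the receptor genes alone as background it stayed at 10 (77.3%). Of 138 values of single genes, 133 kept their call. Bbs10 lost it with averaging and with the tissue genes, and lay below the level with the 99th percentile (-0.39) and its lowest probe set (-0.64), as did Bbs7 with its lowest probe set (-3.73). Member probe sets above background numbered between 12 and 15 of 16, and 10 of 11 without suffixes. All 10 genes passed the cut-off of 5 without each replicate, and with a cut-off of 6, and 9 with the lowest probe set. The genes of sorted membrane proteins above background numbered 2 with averaging, 2 with the 99th percentile, 1 with the lowest probe set and 6 with the receptor genes alone as background. The CCT genes numbered 5 of 7 without suffixed probe sets and 5 of 8 with the lowest probe set. The partner genes numbered 6 of 7 with averaging and 5 of 7 with the lowest probe set. The other Bardet-Biedl syndrome genes numbered 8 of 9 without suffixed probe sets. They numbered 9 of 10 with the 99th percentile and 8 of 10 with the lowest probe set. The listed transcription factors of ciliated cells numbered 4 of 5 with the lowest probe set. The cause of these changes was not tested. The median SD of the members lay between 0.14 and 0.19 without single replicates.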
